A study of Homo sapiens with 12 samples.

Results

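The kinesins of mitosis were described here in FDX2-inducible knockout (FDX2-iKO) ES2 cells, a line from a human ovarian cancer. The members were 10 genes chosen by name, KIF20A, KIF20B, KIF4A, KIF11, KIF14, KIF15, KIF18A, KIF23, KIF2C and KIFC1, whose symbols were found from the Ensembl identifiers of a count table of 58735 genes. Reads had been counted per gene in 12 RNA-seq libraries, 3 for each of 4 conditions. All 10 members were detected in all 12 libraries and passed the filter on low counts, as did 16891 genes in all.

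All 4 conditions shared the same engineered cells. The endogenous FDX2 gene had been knocked out with Cas9, and an HA-tagged FDX2 cDNA that resists editing was carried on a lentivirus under a doxycycline-dependent (TetON) promoter. With doxycycline (Doxy) the cells kept FDX2, and without it they lost FDX2, so that in these libraries Doxy and FDX2 cannot be told apart. The study obtained 2 such clones by limiting dilution, and its cells are therefore clonal. The conditions were 20% O2 with Doxy, 20% O2 without Doxy, 3% O2 with Doxy and 3% O2 without Doxy. Cells at 20% O2 were cultured for 6 days, whereas cells at 3% O2 had 4 days at 20% O2 and then 3 days at 3% O2, so the oxygen groups also differed by 1 day in culture. Total counts ranged from 24958386 to 34313637 per library. FDX2 had 2 to 13 counts in each library, too few to check its loss from these counts. They were as low with Doxy, where the cells carried the expressed FDX2 cDNA, as without. They are therefore no measure of FDX2 mRNA, and why they were low was not tested. Of the markers of the cell type, 4 of 10 epithelial genes (KRT7, KRT8, KRT18 and PAX8) and 5 of 5 mesenchymal genes passed the filter, whereas EPCAM had 0 to 3 counts, and 1 of 5 blood markers (LYZ) and 1 of 3 endothelial markers (CDH5) passed.

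Kinesins are motor proteins that use ATP to move along microtubules or to take their ends apart. The mitotic members build the spindle, move and align chromosomes, and then assemble the midzone and midbody through which the daughter cells separate. Their mRNAs are periodic in dividing cells, being made in the G2 phase and mitosis, and in tissues they are taken as marks of proliferation. KIF4A is in addition an iron-sulfur (Fe-S) protein, and FDX2 is the mitochondrial ferredoxin that supplies electrons for the assembly of Fe-S clusters. In bulk RNA, fewer cells in the phase that makes these mRNAs and less mRNA per such cell cannot be told apart.

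Promoters of genes of the G2 phase and mitosis often hold a cell cycle genes homology region (CHR), written TTTGAA or TTCGAA, and a CCAAT box. RefSeq promoters (GRCh38.p14, 250 bases before to 50 bases after the start) were found for 10 of 10 members. TTTGAA stood on either strand in 8 of 10 members, against 15.2% of 35116 promoters. TTCGAA was in 0 of 10 members and in 1.45% of promoters. CCAAT, on either strand, was in 8 of 10 members and in 34.6% of promoters, and 7 of 10 members had a CHR and a CCAAT box, against 6.38% of promoters. The letters of these motifs do not overlap. KIF20A, which had the largest fold decrease among the members, and KIF2C had neither CHR, and both held the related letters TTTAAA, which were searched after the promoters had been seen and were in 4 of 10 members and 12.2% of promoters. KIF18A, the member that was not called in any comparison, had TTTGAA and CCAAT. Its promoter is given here with those of KIF20A and KIFC1, the members with the largest decreases, of KIF4A, the Fe-S kinesin, and of KIF2C, which had neither a CHR nor CCAAT. Each line gives 110 bases before and 10 bases after the start, 5′ to 3′ on the strand of the gene, at chr11:28108147-28108266 (minus strand) for KIF18A and, on the plus strand, at chr5:138179002-138179121 for KIF20A, chr6:33391713-33391832 for KIFC1, chrX:70289994-70290113 for KIF4A and chr1:44739727-44739846 for KIF2C. Capitals mark the CHR, read as TTTGAA or on the other strand TTCAAA, the CCAAT box, on the other strand ATTGG, and the letters TTTAAA, which read the same on both strands.
KIF20A: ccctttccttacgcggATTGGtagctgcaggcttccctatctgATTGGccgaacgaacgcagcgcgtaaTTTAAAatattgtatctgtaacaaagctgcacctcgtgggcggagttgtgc
KIFC1: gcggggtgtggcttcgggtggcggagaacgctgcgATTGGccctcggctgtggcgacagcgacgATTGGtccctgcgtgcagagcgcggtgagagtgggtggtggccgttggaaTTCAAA
KIF4A: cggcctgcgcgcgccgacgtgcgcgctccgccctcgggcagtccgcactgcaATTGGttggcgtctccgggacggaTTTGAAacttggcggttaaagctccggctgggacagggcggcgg
KIF2C: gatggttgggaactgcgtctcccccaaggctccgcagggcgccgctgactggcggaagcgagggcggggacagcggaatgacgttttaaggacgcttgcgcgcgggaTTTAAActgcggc
KIF18A: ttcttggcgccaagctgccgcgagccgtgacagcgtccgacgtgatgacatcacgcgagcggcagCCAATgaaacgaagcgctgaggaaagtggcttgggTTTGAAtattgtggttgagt
A match is only a run of letters, and no binding was measured here.

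Levels are given as CPM, the counts of a gene relative to the total of its library after scaling by the trimmed mean of M-values (TMM), and as CPM per kilobase of annotated exon where genes are compared. Per kilobase, the summed level of the 10 members was 278 ± 5.71 CPM per kilobase (SD, n = 3 here and below) at 20% O2 with Doxy, 161 ± 1.37 at 20% O2 without Doxy, 281 ± 6.58 at 3% O2 with Doxy and 232 ± 2.34 at 3% O2 without Doxy. KIF2C, a microtubule depolymerase that corrects faulty chromosome attachments, had the highest level per kilobase in all 4 conditions, 58.1 ± 2.56 CPM per kilobase at 20% O2 with Doxy. KIF15, a plus-end motor that helps KIF11 to hold the spindle poles apart, had the lowest, 12.04 ± 1.02. Between them at 20% O2 with Doxy came KIF11, KIF4A and KIFC1 at 35.3, 34.6 and 34.3 CPM per kilobase, then KIF20A at 26.6, KIF23 and KIF20B at 22.6 and 22.3, and KIF14 and KIF18A at 16.6 and 15.7. The replicates overlapped within each of these groups of neighbours, so that the order inside a group was not resolved. At 20% O2 without Doxy KIF20A was the 9th of 10, and its replicates overlapped those of KIF15, whereas it was the 5th in the other 3 conditions. The order in the middle depended on the length used. With the length of the longest annotated transcript KIF2C stayed highest and KIF15 lowest in all 4 conditions, but KIF23 was the 3rd at 20% O2 with Doxy, at 39.9 ± 3.35 CPM per kilobase, where KIFC1, KIF23, KIF4A, KIF11 and KIF20A overlapped from one neighbour to the next and KIF20B had 23.8. KIF20A was then the 6th at 20% O2 with Doxy, the 8th at 20% O2 without Doxy, the 5th at 3% O2 with Doxy and the 6th at 3% O2 without Doxy.

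The libraries of a condition did not all rank the members alike. In replicate 1 of 20% O2 with Doxy, KIFC1 and KIF2C were highest of the 3 libraries and 7 other members were lowest. In replicate 3 of 3% O2 with Doxy, KIFC1, KIF2C and KIF20A were highest and the same 7 were lowest. The reverse was also seen. KIFC1, KIF2C and KIF20A were lowest in replicate 3 of 20% O2 with Doxy and in replicate 1 of 3% O2 with Doxy. They were lowest too in replicate 3 of 20% O2 without Doxy, where 6 other members were highest. KIFC1, KIF2C and KIF20A have the highest G and C content of the longest transcript among the members, 57.9%, 50.4% and 48.4%, against 34.2% to 46.4% in the other 7. Replicates of a condition differed beyond counting noise in every condition, but not equally. The median chi-square of replicate counts per degree of freedom was 4.56 at 20% O2 with Doxy and 1.32 without. At 3% O2 it was 3.99 with Doxy and 3.20 without. Results without replicate 1 of 20% O2 with Doxy or replicate 3 of 3% O2 with Doxy are therefore given where they change a call. The same holds for a correction for GC content.

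FDX2 loss at 20% O2 lowered most mitotic kinesins. Of the 10 members, 9 were called lower without Doxy and 0 higher, where 17.5% of all tested genes were lower and 17.6% higher. A call here and below is an adjusted p under 0.05 by the quasi-likelihood test of edgeR, with the Benjamini-Hochberg method applied over all 16891 genes. The median log2 fold change of the members was -0.71, against 0.01 over all tested genes. The replicates of 9 members did not overlap, all in the direction of a decrease, as did those of 25.8% of all genes.

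Among the kinesins of the midzone and of cytokinesis, KIF20A, which carries the chromosomal passenger complex to the midzone, fell furthest. KIF20A is on chromosome 5 (GRCh38, 138178719 to 138187715, plus strand). It had 106, 108 and 102 CPM in the libraries with Doxy and 36.3, 37.3 and 33.3 CPM in those without. The level without Doxy was thus 33.9% of the level with Doxy, and the groups were far apart (log2 fold change -1.56, SE 0.0657, adjusted p = 8.62e-08 by edgeR's quasi-likelihood test). Its fold change was the 21st lowest of the 16891 tested genes. KIF23, which with RACGAP1 forms the centralspindlin complex, had 134, 158 and 153 CPM with Doxy. Without Doxy KIF23 had 81.5, 79.9 and 81.3 CPM, a tight group below all 3 others (log2 fold change -0.88, SE 0.0796, adjusted p = 1.20e-05). KIF14, which acts with the citron kinase CIT late in cytokinesis, ranged from 109 to 130 CPM with Doxy and from 71.0 to 73.4 CPM without (log2 fold change -0.74, SE 0.0653, adjusted p = 9.72e-06). KIF20B, a motor of the midbody, ranged from 138 to 166 CPM with Doxy and from 96.5 to 104 CPM without (log2 fold change -0.60, SE 0.0858, adjusted p = 2.96e-04). The 4 members with this role were all lower, but KIF20A by far more than KIF20B.

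The motors that set up the bipolar spindle were also lower. KIF11, also known as Eg5, pushes the spindle poles apart by sliding antiparallel microtubules. It had 156, 178 and 181 CPM with Doxy and 91.9, 91.4 and 98.4 CPM without. The lowest library with Doxy was well above the highest one without (log2 fold change -0.87, SE 0.0629, adjusted p = 2.39e-06). KIF15, its partner motor, ranged from 57.5 to 67.7 CPM with Doxy and from 41.3 to 44.8 CPM without (log2 fold change -0.58, SE 0.0655, adjusted p = 5.70e-05). KIFC1, which moves towards the minus end, focuses the poles and gathers extra centrosomes in cancer cells. It had 132, 113 and 99.5 CPM with Doxy and 52.9, 52.1 and 50.7 CPM without. Its libraries with Doxy were the most spread in proportion to their mean of all the members at 20% O2, yet none came near those without Doxy (log2 fold change -1.14, SE 0.120, adjusted p = 3.39e-05). KIF20A and KIFC1 were the 2 members with a log2 fold change of -1 or less, as were 1.07% of all tested genes. KIFC1 overlaps a ribosomal protein pseudogene, RPL12P1, on the other strand over 12.7% of its exon length, the largest overlap among the members.

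The 3 members that act on chromosomes differed from each other. KIF4A, the chromokinesin and Fe-S protein, is found on chromosome arms and, with PRC1, sets the length of the midzone. It had 149, 162 and 160 CPM with Doxy and 96.2, 95.8 and 101 CPM without, 2 groups that did not overlap. Its log2 fold change of -0.68 (adjusted p = 2.63e-06) was close to the median of the members. KIF4A shares sequence runs of at least 100 bases with the intronless copy KIF4B, which had 134 counts in all 12 libraries together against 49921 for KIF4A. KIF2C ranged from 204 to 222 CPM with Doxy and from 128 to 135 CPM without (log2 fold change -0.69, SE 0.0680, adjusted p = 2.25e-05). KIF18A, which damps the oscillations of chromosomes at the metaphase plate, had 63.8, 77.9 and 77.5 CPM with Doxy and 67.0, 65.0 and 70.7 CPM without. These groups overlapped, and KIF18A was not called (log2 fold change -0.11, SE 0.0918, adjusted p = 0.377). The 95% interval of its log2 fold change ran from -0.31 to 0.09, so that a decrease of the size seen in the other 9 members lay outside it, while a small decrease did not. With a correction for GC content KIF18A was called lower at 20% O2, with a log2 fold change of -0.17 (adjusted p = 0.00176).

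FDX2 loss at 3% O2 gave smaller differences of the same sign. Of the 10 members, 5 were called lower and 0 higher, against 3.04% of all tested genes lower and 4.22% higher. The median log2 fold change of the members was -0.30, against 0.04 over all genes. In 9 of 10 members the replicates without Doxy lay below those with Doxy without overlap, as they did in 11.2% of all genes.

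The called members were KIF20A, KIF23, KIF14, KIF11 and KIF15, which are 3 motors of the midzone or cytokinesis and 2 of the bipolar spindle. KIF20A had 104, 110 and 121 CPM with Doxy and 79.4, 81.0 and 78.4 CPM without. The level left was 71.3%, and the groups were apart (log2 fold change -0.49, SE 0.0639, adjusted p = 0.00137). KIF23 had 155, 148 and 136 CPM with Doxy and 124, 105 and 112 CPM without (log2 fold change -0.36, SE 0.0791, adjusted p = 0.0195). Its call ended when any of 4 libraries was left out, replicate 1 or 2 of 3% O2 with Doxy or replicate 2 or 3 of 3% O2 without Doxy, and with the replicate as a block (adjusted p = 0.0555). KIF14 ranged from 120 to 128 CPM and from 93.7 to 99.4 CPM (log2 fold change -0.35, adjusted p = 0.00915). KIF11 had 168, 168 and 157 CPM with Doxy and 129, 131 and 134 CPM without (log2 fold change -0.32, SE 0.0625, adjusted p = 0.0113). For KIF11 as for KIF14 the gap between the groups exceeded the spread within either, but KIF11 lost its call without replicate 2 of 3% O2 with Doxy (adjusted p = 0.0595). KIF15 was just past the threshold (log2 fold change -0.24, adjusted p = 0.0497) and lost its call when any of 10 of the 12 libraries was left out, keeping it without replicate 1 of 20% O2 with Doxy or replicate 3 of 3% O2 with Doxy.

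The other 5 members had values below 0 that did not pass the test. KIFC1 had 116, 118 and 152 CPM with Doxy and 99.7, 112 and 100 CPM without, with 1 library well above the rest (log2 fold change -0.31, adjusted p = 0.146), and without that library, replicate 3 with Doxy, it was -0.17. KIF20B had a log2 fold change of -0.28 (adjusted p = 0.0712) and KIF2C of -0.23 (adjusted p = 0.0656). KIF4A had 162, 163 and 161 CPM with Doxy and 146, 140 and 150 CPM without. The groups of KIF4A did not overlap, and the log2 fold change was -0.16 (SE 0.0497, adjusted p = 0.0829). KIF18A had 69.6, 70.2 and 58.7 CPM with Doxy and 63.5, 59.0 and 66.3 CPM without, which overlapped (log2 fold change -0.07, adjusted p = 0.688). With the correction for GC content KIFC1 (-0.37, adjusted p = 3.03e-05), KIF20B (-0.25, 8.37e-04), KIF2C (-0.24, 9.23e-04) and KIF4A (-0.15, 0.0126) were called lower. Without replicate 1 of 20% O2 with Doxy KIF20B, KIF2C and KIF4A were called (adjusted p = 0.0376, 0.0313 and 0.0418). Without replicate 3 of 3% O2 with Doxy KIF20B was called (adjusted p = 0.0146). The number of members called at 3% O2 depended on the fit. It was 1 when only the 6 libraries compared were fitted, 2 when replicate 2 of 3% O2 with Doxy was left out, 3 when replicate 1 of 3% O2 with Doxy or replicate 2 or 3 of 3% O2 without Doxy was, 8 when replicate 1 of 20% O2 with Doxy was left out, 8 by DESeq2 and 9 with a correction for GC content, and the sign was negative for all 10 members in every one of these fits. The number of all tested genes called lower moved too, from 513 of 16891 as reported. It was 68 of 16012 in the 6 libraries, 222 of 17363 without replicate 2 of 3% O2 with Doxy and 256 of 17298 without replicate 1. Without replicate 2 or 3 of 3% O2 without Doxy it was 207 of 17334 and 310 of 17287. Without replicate 1 of 20% O2 with Doxy it was 818 of 17309, by DESeq2 1105 and with the GC correction 1681 of 16891.

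The effect of oxygen was compared next, first with FDX2 present. With Doxy, 0 of 10 members were called between 3% and 20% O2, by edgeR's quasi-likelihood test as by DESeq2, and 0 had an unadjusted p under 0.05. Without replicate 1 of 20% O2 with Doxy 4 members had one and 0 were called, and with the correction for GC content 2 had one and 1 was called, KIFC1. Of all tested genes, 0.385% were called lower and 1.65% higher at 3% O2, and 12.9% had an unadjusted p under 0.05. Log2 fold changes ran from -0.14 for KIF18A to 0.17 for KIFC1. The replicates of all 10 members overlapped between the 2 oxygen levels, whereas in 6.61% of all genes they lay apart towards lower and in 8.83% towards higher levels at 3% O2. For KIF20A the 95% interval ran from -0.05 to 0.23 and for KIF4A from -0.06 to 0.15 on the log2 scale, while for KIFC1 it was the widest, from -0.09 to 0.42.

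Without Doxy, 8 of 10 members were called higher at 3% than at 20% O2 and 0 lower, against 13.8% of all tested genes higher and 11.9% lower. Their median log2 fold change was 0.48, against 0.07 over all genes. The replicates of 9 members did not overlap, all towards higher levels at 3% O2, as in 27.4% of all genes. This comparison shares its libraries with those of FDX2 loss above and is not independent of them. KIF20A rose from 35.6 ± 2.10 to 79.6 ± 1.27 CPM (log2 fold change 1.16, SE 0.0654) and KIFC1 from 51.9 ± 1.12 to 104 ± 7.07 CPM (log2 fold change 1.00, SE 0.120). KIF4A followed, from 97.7 ± 2.96 to 145 ± 5.16 CPM (log2 fold change 0.57). KIF23, KIF11, KIF2C, KIF14 and KIF15 were higher by log2 fold changes of 0.49, 0.48, 0.48, 0.43 and 0.28. The call of KIF15 ended without replicate 1 or replicate 2 of 20% O2 without Doxy (adjusted p = 0.0736 and 0.0784), which left 7 members. KIF20B had a log2 fold change of 0.23 with groups that did not overlap (adjusted p = 0.0740). When only the 6 libraries compared were fitted, KIF20B was called as well (log2 fold change 0.21, adjusted p = 0.0118), which made 9 members. With the replicate as a block in those 6 libraries it was also called (0.21, adjusted p = 0.0183), although the replicate numbers paired these libraries only in part. The same held without replicate 3 of 3% O2 with Doxy (0.23, adjusted p = 0.0249). With the correction for GC content KIF20B was also called, at 0.44 (adjusted p = 3.81e-06). KIF18A had 67.6 ± 2.89 and 63.0 ± 3.68 CPM, which overlapped (log2 fold change -0.10, adjusted p = 0.437).

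**Figure D1:**
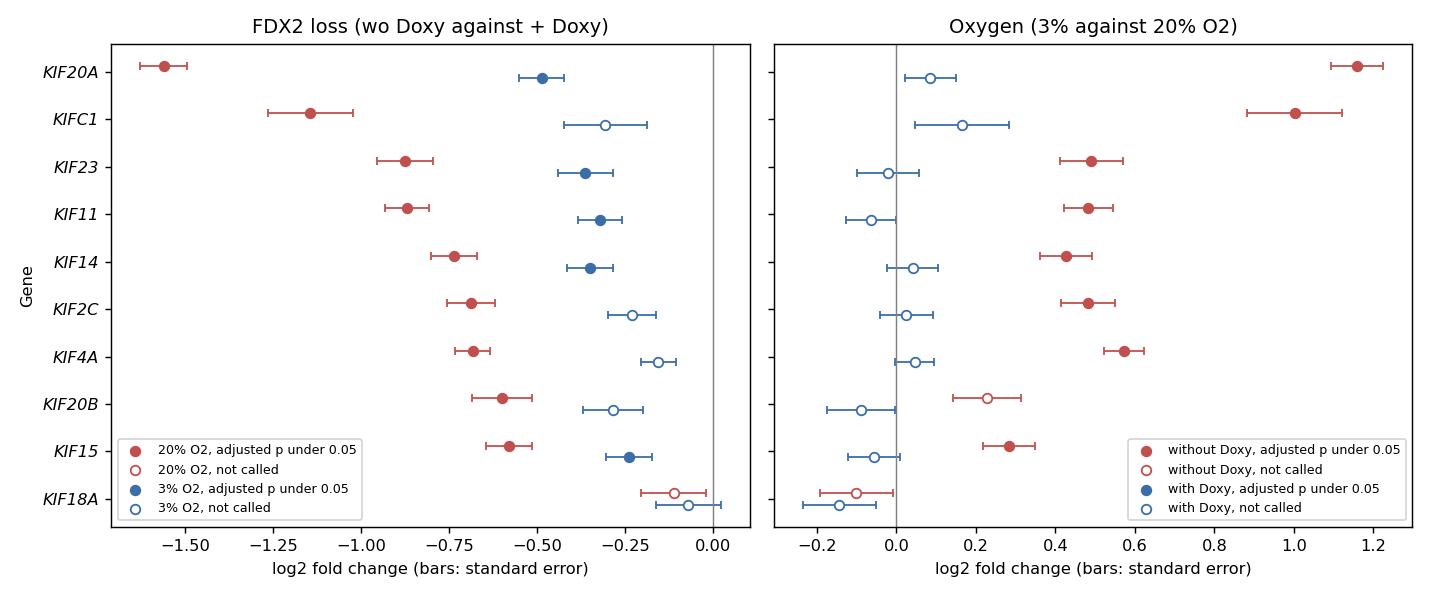
Log2 fold change (x axis) of each mitotic kinesin (y axis, ordered by FDX2 loss at 20% O2) for FDX2 loss at 20% and 3% O2 (left) and for 3% against 20% O2 without and with Doxy (right); bars are standard errors and filled points have an adjusted p under 0.05. FDX2 loss at 20% O2 spans -1.56 to -0.11, FDX2 loss at 3% O2 -0.49 to -0.07, and oxygen with Doxy -0.14 to 0.17.

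Whether FDX2 loss acted differently at the 2 oxygen levels was tested as the difference of the log2 fold changes, 3% minus 20% O2. It was above 0 and called for 8 of 10 members, against 3.13% of all tested genes called higher and 4% called lower. KIF20A had the largest difference, 1.07 (SE 0.0909, adjusted p = 2.02e-04), and KIFC1 the next, 0.84 (SE 0.167, adjusted p = 0.0136). KIF11 differed by 0.55 (SE 0.0884, adjusted p = 0.00477), KIF4A by 0.53 (SE 0.0704, adjusted p = 0.00189) and KIF23 by 0.51 (SE 0.112, adjusted p = 0.0209). For KIF2C it was 0.46 (adjusted p = 0.0175), for KIF14 0.39 (adjusted p = 0.0298) and for KIF15 0.34 (adjusted p = 0.0499). KIF20B, at 0.32, was not called (adjusted p = 0.144), nor was KIF18A, at 0.04 (adjusted p = 0.874), but with the correction for GC content KIF20B was called, at 0.43 (adjusted p = 2.44e-04). With the replicate as a block in all 12 libraries 4 members remained called, which were KIF20A, KIFC1, KIF11 and KIF4A, although the numbers did not pair the libraries of all conditions. When replicate 2 of either condition with Doxy, or any of the 3 libraries of 20% O2 without Doxy, was left out, 5 members were called.

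The share of the 20% O2 response that was seen at 3% O2 varied among the members. On the log2 scale, the fold change of KIF4A at 3% O2 was 23.0% of that at 20% O2, that of KIFC1 26.9% and that of KIF20A 31.2%. KIF2C kept 33.6%, KIF11 37.2%, KIF15 41.4% and KIF23 41.5%. KIF20B and KIF14 kept 47.4% and 47.6%, and the value of KIF20B ran from 37.8% to 61.3% with a library left out. KIF18A, whose fold changes were small and not called, had the highest value, 62.6%. It was not resolved, running from 24.2% to 128% with a library left out. The order rested in part on single libraries, since without replicate 3 of 3% O2 with Doxy the values were 14.8% for KIFC1, 21.3% for KIF2C and 23.9% for KIF4A. These shares are descriptions, and differences between members in them were not tested.

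The make-up of the kinesin mRNA pool was described next. Each member's share of the summed CPM per kilobase was compared with an exact two-sided permutation test over samples, for which the smallest p with 3 against 3 libraries is 0.10, or 0.267 after Benjamini-Hochberg adjustment over the 40 tests made. No such share could therefore pass a threshold of 0.05, and non-overlap is given instead. At 20% O2 the share of KIF20A was 9.56% ± 0.322 with Doxy and 5.59% ± 0.376 without. That of KIFC1 was 12.4% ± 1.96 with Doxy and 9.64% ± 0.282 without. KIF18A had 5.62% ± 0.523 of the pool with Doxy and 8.99% ± 0.310 without. For KIF20B, KIF4A and KIF15 the mean shares without Doxy were also above those with Doxy, 9.15% against 8.02%, 13.4% against 12.4% and 5.004% against 4.33%. Replicates did not overlap in these 6 members and overlapped in the other 4. Shares of 1 pool depend on each other, so a smaller share of some members makes those of others larger. The levels of KIF20B, KIF4A and KIF15 were themselves lower without Doxy (log2 fold changes -0.60, -0.68 and -0.58). At 3% O2 the share of KIF20A was 10.02% with Doxy and 8.68% without, that of KIF4A 12.7% and 13.8% and that of KIF18A 5.05% and 5.82%, again without overlap.

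Over the 12 libraries the members varied together by Pearson's r, with KIF18A as the exception, but less uniformly by rank. Profiles were the log2 of CPM plus 1, each gene centred on its own mean. The profile of KIF11 had the highest Pearson correlation with the mean profile of the other 9 members (r = 0.988). That of KIF18A had the lowest (r = 0.150), while the other 8 members lay between 0.899 and 0.983. Spearman's rho, a correlation of ranks, was taken with the mean profile of all members, the gene itself included. It was 0.448 for KIF18A, 0.608 for KIFC1, 0.790 for KIF2C and 0.797 for KIF20A. The rest of the members had a rho from 0.916 to 0.993. These values are descriptions over libraries that share their scaling and fall into the 4 conditions. Among genes that are not members and have a mean of at least 5 CPM, the profiles most like the mean of the members by Pearson's r over 12 libraries were those of KPNA2, BUB1, HMGN2, SKP2 and ANLN, with r from 0.995 to 0.997. KPNA2 had 499, 253, 508 and 393 CPM on average at 20% O2 with Doxy, 20% O2 without Doxy, 3% O2 with Doxy and 3% O2 without Doxy. BUB1, a kinase of the spindle checkpoint, had 169, 80.1, 171 and 127 CPM in the same order. By Spearman's rho HMGN2 was the one of these 5 that stayed among the first 5.

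Other kinesins with a mitotic role moved like the members. Of 6 such genes 5 were tested, and 4 were called lower and 0 higher at 20% O2 without Doxy. Of all tested genes 17.5% were lower and 17.6% higher there. KIF18B, which works with KIF2C on microtubule ends, had a log2 fold change of -1.15 (adjusted p = 2.53e-04), CENPE, the kinetochore motor that brings chromosomes to the plate, -0.92 (adjusted p = 1.18e-05), KIF22, a chromokinesin, -0.68 (adjusted p = 8.96e-04) and KIF2A, a depolymerase at the poles, -0.37 (adjusted p = 5.50e-04). KIF4B, at -0.48, was not called (adjusted p = 0.531) and had few counts, and KIF2B had 0 counts in all libraries. At 3% O2, 1 of the 5 was called lower, CENPE, at -0.43. The difference between the oxygen levels was called for 3 of 5, CENPE (0.50), KIF22 (0.60) and KIF18B (0.87). The paralogs KIF18A and KIF18B, both of the kinesin-8 family, thus stood far apart, with log2 fold changes of -0.11 and -1.15 at 20% O2. The longest transcript of KIF18A holds 37.0% G and C and that of KIF18B 58.4%, and the part of GC content in this gap was not tested.

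Kinesins that carry cargo and other kinesins outside mitosis did not move as a group. At 20% O2 without Doxy 17.5% of all tested genes were lower and 17.6% higher, the background of each list in this paragraph. Of 31 listed genes, kinesin light chains included, 25 were tested, and at 20% O2 without Doxy 4 were lower and 3 higher, with a median log2 fold change of -0.13. The largest decreases were those of KIF21B (-0.64) and KIF3C (-0.31), and KIFAP3, an adaptor of the KIF3 motors, was higher by 0.27. The other 2 that were higher, KIF6 and KIF26B, were below 5 CPM. Of the 19 subunits and regulators of cytoplasmic dynein, the minus-end motor, 2 were lower, NDE1 (-0.83) and DYNC1H1 (-0.32), and 5 higher, with DYNLT3 (0.36) and DYNLRB1 (0.35) first. Of 10 tubulins tested, 6 were lower, with TUBB6 (-0.91) and TUBB4B (-0.89) first, and 1 higher, TUBA1A (0.62). Tubulin genes are near-identical in sequence, and how the counting split reads between them is not given in the sources used here.

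The mRNAs of proteins that bind or phosphorylate the mitotic kinesins were lower in most cases at 20% O2 without Doxy. Of 23 such genes tested, 20 were called lower and 1 higher there, against 17.5% and 17.6% of all tested genes. Their median log2 fold change was -0.67. PLK1, the kinase that KIF20A binds, had the largest decrease (-1.48), followed by CCNB1, the cyclin of CDK1 (-1.16). RACGAP1, the partner of KIF23, was lower by a log2 fold change of -0.68, AURKB, the kinase carried by KIF20A, of -0.63, CIT, the partner of KIF14, of -0.49, and TPX2, which brings KIF15 and KIF11 to the spindle, of -0.66. PRC1, the partner of KIF4A, was at -0.67, but 58.4% of its exon length is shared with other annotated genes and it had 40 to 110 counts in each library, so its level is uncertain. NEK9, a kinase upstream of KIF11, was higher by 0.32. At 3% O2, 8 of the 23 were lower and 0 higher, and the difference between the oxygen levels was called above 0 for 13 and below 0 for 1. With Doxy, 0 of the 23 were called between the oxygen levels, and 2 had an unadjusted p under 0.05, as had 12.9% of all tested genes.

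Transcription factors of G2 and mitosis genes gave a mixed picture. Of 20 tested, 10 were lower and 2 higher at 20% O2 without Doxy, against 17.5% of all tested genes lower and 17.6% higher. E2F1 (-0.83), FOXM1 (-0.81), the activator of many mitotic genes, and MYBL2 (-0.67) were lower, and E2F7 (0.42), an E2F repressor, and LIN52 (0.26), a subunit of the MuvB complex that binds CHR elements, were higher. At 3% O2, 1 of the 20 was lower, and FOXM1 (-0.12, adjusted p = 0.608) and MYBL2 (-0.41, adjusted p = 0.134) were not called. FOXM1 was higher at 3% than at 20% O2 without Doxy by 0.82 (adjusted p = 0.00103), and its difference of responses was 0.69 (adjusted p = 0.0406). Of 10 genes of cytosolic Fe-S assembly and targeting, which place clusters in proteins such as KIF4A, 4 were lower and 0 higher at 20% O2, MMS19 (-0.34), CIAO2A (-0.33), NUBP1 (-0.23) and CIAPIN1 (-0.19). At 3% O2 0 of 10 were called, against 3.04% of all tested genes lower and 4.22% higher. There 1 of the 10 had an unadjusted p under 0.05 by edgeR's test, as had 3853 of all 16891 tested genes.

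**Figure D2:**
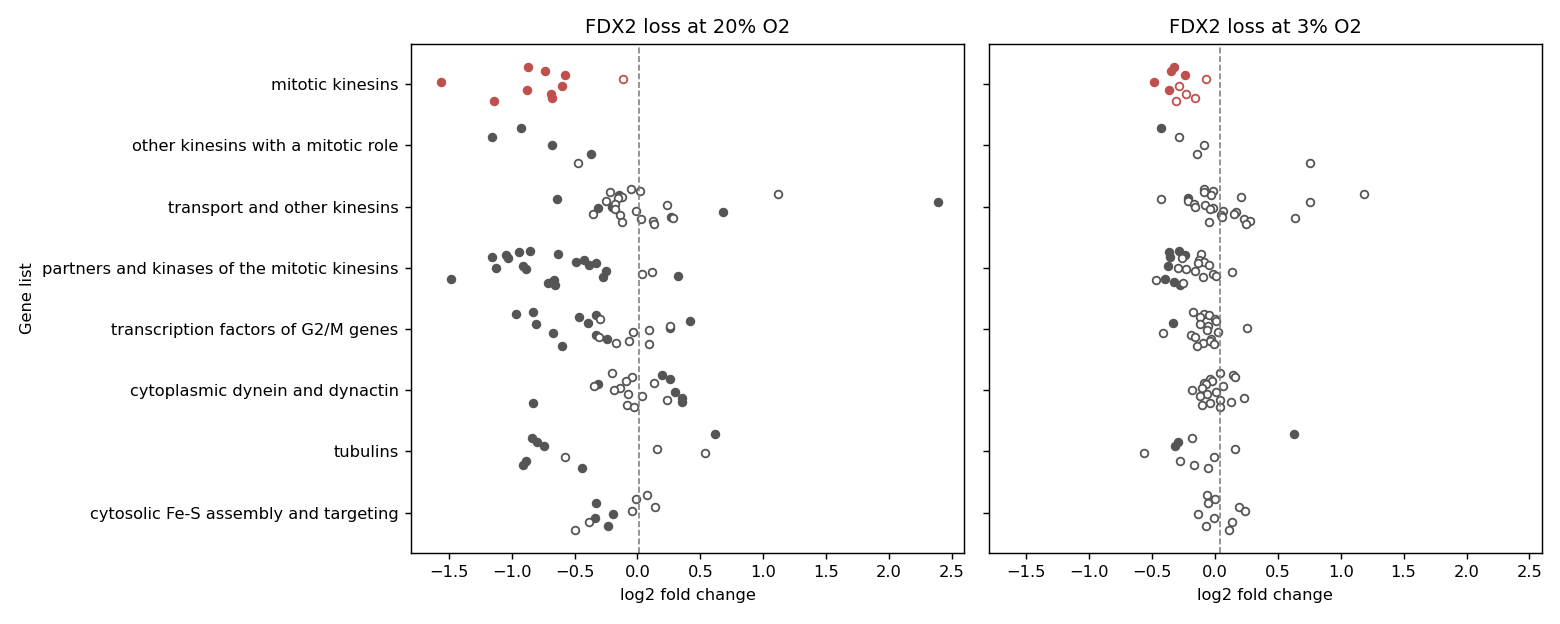
Log2 fold change (x axis) of every tested gene in 8 gene lists (y axis) for FDX2 loss at 20% O2 (left) and 3% O2 (right); filled points have an adjusted p under 0.05, red marks the mitotic kinesins and the dashed line the median of all tested genes. At 20% O2 the mitotic kinesins (median -0.71) and their partners (-0.67) lie left of transport kinesins (-0.13) and dynein genes (-0.05).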

How the data were processed

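RNA was measured in 12 libraries of FDX2-iKO ES2 cells (polyA-selected, paired-end reads of 150 bases). The authors used STAR for alignment and featureCounts for counting, and the deposited counts are whole reads per gene, not normalized. Versions, strand setting and treatment of multimapping reads are not given in the sources used here. For 2 libraries of 20% O2 with Doxy the series text says that part of the raw reads was lost, but their counts are included. All 58735 identifiers were in GENCODE 29 (GRCh38), from which symbols, exon lengths and overlaps were taken. Depth was 24958386 to 34313637 counts.

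Genes with at least 10 counts by edgeR's filterByExpr (total of at least 15) were kept. The quasi-likelihood test (edgeR 4.0.16, R 4.3.3, TMM, robust) was fitted to 4 condition means (8 residual degrees of freedom), with Benjamini-Hochberg adjustment over 16891 genes. The series text calls the replicates biological and does not say how they were set up, so p-values measure the spread between these libraries. The alternatives were DESeq2 size factors and its Wald test (1.42.0), other count filters, the replicate as a block, a GC correction (lowess), the compared libraries alone, each library left out, longest transcripts as length and, chosen after seeing the data, no robust estimation, a GC correction with block in 6 libraries and the letters TTTAAA. Scripts were tested on simulated data. Only between 20% and 3% O2 without Doxy were all 3 same-number correlations of deviations above 0 (0.497, 0.190 and 0.318). Replicates 2 and 3 were not told apart there, with correlations of 0.211 and 0.231 across these numbers. Between the conditions of 3% O2, replicate 1 had 0.6475 but replicate 2 had -0.378. All members are named. From other lists the 2 largest called changes each way at 20% O2 with at least 5 CPM, and 12 genes chosen by name, are given. The members and lists were chosen with earlier results of these data known.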

Additional observations from a re-analysis of the deposited data

Results flagged for a closer look

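In 8 members the effect of FDX2 loss was not the same at 20% and 3% O2 when the difference itself was tested (quasi-likelihood test of edgeR, Benjamini-Hochberg method). This difference, 3% minus 20% O2, was 1.07 for KIF20A, 0.84 for KIFC1, 0.55 for KIF11, 0.53 for KIF4A, 0.51 for KIF23, 0.46 for KIF2C, 0.39 for KIF14 and 0.34 for KIF15 on the log2 scale. The calls of KIF2C, KIF23, KIF14 and KIF15 ended with the replicate as a block in all 12 libraries. Those of KIF15, KIF14 and KIF23 also ended in 11, 8 and 5 of the 12 fits with a library left out. No group had more than 3 libraries, so single samples were not tested as outliers.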

How the results depend on the processing

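FDX2 loss at 20% O2 kept its 9 members lower or gave 10 under every alternative, and no member changed sign there or for FDX2 loss at 3% O2. Members called lower at 3% O2, 5 as reported, numbered 3 with the replicate as a block in all 12 libraries, 9 with the GC correction and 9 with GC correction and block. They numbered 1 with only the libraries compared, 0 with the block in those libraries, 8 by DESeq2's Wald test and 2 to 8 with a library left out. By edgeR's test 8 members had an unadjusted p under 0.05 with the block in those libraries, against 9 as reported. In the fit as reported 3853 of all 16891 tested genes had one, and for the block this number was not taken. Why the number of calls moved was not tested. Fits to fewer libraries have fewer degrees of freedom and another estimate of the spread. The fit as reported took a single spread from all 12 libraries. These included 20% O2 without Doxy, whose replicates differed least (median chi-square per degree of freedom 1.32). For the conditions of 3% O2 this value was 3.99 with Doxy and 3.20 without. Over all genes the compared libraries alone gave 6440 calls for FDX2 loss at 20% O2, 5923 as reported, and 219 at 3% O2, 1226 as reported. For 3% against 20% O2 with Doxy the GC correction called 1 member higher, KIFC1 (0.13, adjusted p = 0.0410). The difference of responses, called for 8 members, was called for 4 with the replicate block, 9 with the GC correction, 9 with GC correction and block, 6 without a count filter, 6 with at least 10 counts in every library, 7 with DESeq2 size factors and 5 to 8 with a library left out. KIF15 lost that call in 11 of 12 such fits, KIF14 in 8 and KIF23 in 5. With the longest transcript as length, 29 of the 40 levels per kilobase moved by more than 1 SD of the replicates. The 40 differences of a share of the pool between conditions were judged by a wider limit. It was the combined SD of the 2 conditions, the root of their summed squares, and none moved by more.

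Signs turned in values near 0 only. With Doxy, 3% against 20% O2 became 0.017 for KIF20B, 0.0033 for KIF23 and -0.0016 for KIF2C with the GC correction and 0.017, 0.0021 and -0.0024 with GC correction and block. With a library left out, they ran from -0.00065 to 0.066 for KIF4A, from -0.039 to 0.097 for KIF14, from -0.099 to 0.028 for KIF23 and from -0.060 to 0.070 for KIF2C. KIF18A, 3% against 20% O2 without Doxy, was 0.073 under each of the 3 GC corrections, and its difference of responses ran from -0.033 to 0.127 with a library left out.

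The replicate numbers paired libraries in part for 3% against 20% O2 without Doxy, where replicates 2 and 3 were not told apart. In that comparison the 6 libraries called 9 members higher without the block and with it. The block ended no call of a member there. Over all genes, 1226 were called for FDX2 loss at 3% O2, but 813 without a count filter, 656 with the block, 219 and 3 in the compared libraries without and with the block, 1944 by DESeq2, 3284 and 2902 with the GC correction without and with the block, and 559 to 1636 with a library left out. For 3% against 20% O2 with Doxy the 344 genes (65 lower, 279 higher) became 214, 126, 10, 629, 1218 (396 lower, 822 higher) and 926 under the same settings from the block on, and for the difference of responses the 1203 became 791 without a filter, 592 with the block, 1916 by DESeq2, 3058 and 2634 with the GC corrections. With a library left out, these ranged from 191 to 384 and from 502 to 2093, and 3% against 20% O2 without Doxy, 4337 as reported, from 2285 to 5182. The lowest level of a member was 33.3 CPM, in libraries of at least 24958386 counts, so that low counts limited no member.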
